A study of Drosophila melanogaster with 24 samples.

Results

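The 295 transfer RNA (tRNA) genes of the Drosophila melanogaster chromosome arms were examined for binding by 3 insulator proteins, Su(Hw), Mod(mdg4)2.2 (here Mod(mdg4)) and CP190, and by the zinc-finger protein CLAMP. They are the genes of the RefSeq annotation of build dm6 on the arms 2L, 2R, 3L, 3R, 4 and X whose symbol begins with "tRNA:", out of 17684 genes on those arms. Of the 295 genes, 5 are annotated as pseudogenes. A gene was called bound when the summit of a peak, its highest point, lay within 500 bases of either end. The summit could lie inside or outside the gene, but one inside a long gene over 500 bases from both ends was not counted. This rule was applied to each of the 6 peak lists. The strength of a peak is given as its fold enrichment over input at the summit, a value set by the authors' peak caller.

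The data are chromatin immunoprecipitation with sequencing (ChIP-seq) of Kc167, a line of cultured cells from Drosophila embryos, made to compare where CLAMP and the insulator proteins sit in the genome. Cells labelled mock were the controls of a treatment with double-stranded RNA (dsRNA) against Clamp. They were precipitated with sera against Su(Hw), Mod(mdg4)2.2 or CP190 and with 2 different antibodies against CLAMP. The labels call the CLAMP antibodies clamp (here the first antibody) and clamp-abcam (here the second). Cells transfected with 5 ug of dsRNA against Clamp and kept for 6 days were precipitated with the second CLAMP antibody only. Each of these 6 groups had 2 libraries, and there were also 10 mock input libraries and 2 input libraries from dsRNA-treated cells. All 24 libraries come from 1 cell line, and the level of CLAMP left after dsRNA was not analysed here. Each pair of ChIP libraries was merged into 1 peak list before deposit, which leaves the values without a replicate error and allows no test between conditions. CP190 had the most peaks on the arms, 9435, followed by the first CLAMP antibody with 5370, the second with 3861, Su(Hw) with 3687, Mod(mdg4) with 1732 and the dsRNA list with 1653. Intervals around shares are 95% Wilson intervals and cover counting error only. They count each gene as independent, and neighbouring tRNA genes that share a summit make them too narrow. Read depth is unknown from peak lists.

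tRNA genes are transcribed by RNA polymerase III from promoter elements inside the gene, the A and B boxes, which are recognised by the factor TFIIIC. In the yeasts Saccharomyces cerevisiae and Schizosaccharomyces pombe, tRNA genes and TFIIIC sites can act as barriers between chromatin domains. In Drosophila, Su(Hw) binds DNA at the gypsy insulator and recruits Mod(mdg4)2.2 and CP190, CP190 is also found at many promoters of protein-coding genes, and CLAMP binds GA-rich sequence and takes part in dosage compensation and histone gene regulation.

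The tRNA genes were short and grouped. Their median length was 73 bases, from 71 to 186, against a median of 1710 bases for all genes. The arms carried them unevenly, with 100 genes on 2R, 79 on 3R, 49 on 3L, 41 on 2L, 26 on X and none on 4. When genes less than 1 kb apart were joined, 176 clusters resulted, of which 105 were genes standing alone, 45 were pairs, 20 held 3 or 4 genes and 6 held 5 to 7 genes. In 49 of the 71 clusters of 2 or more genes, all members belonged to 1 amino acid family. The 22 families include the initiator tRNA for methionine (iMet), which starts translation and is counted apart from the elongator Met genes, and the single gene for selenocysteine (SeC).

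CP190 was the protein most often found at tRNA genes. A CP190 summit lay within 500 bases of 86 of the 295 genes (29.2%, interval 24.3 to 34.6%), and the same rule called 44.4% of all genes. The first CLAMP antibody gave 23 genes (7.8%, interval 5.25 to 11.4%) against 12.8% of all genes. The second gave 20 (6.78%, interval 4.43 to 10.2%) against 10.8% of all genes. Su(Hw) was at 9 genes (3.05%, interval 1.61 to 5.7%) and at 4.68% of all genes. Mod(mdg4) was at 8 (2.71%, interval 1.38 to 5.26%) and at 3% of all genes. After Clamp dsRNA the second CLAMP antibody gave 2 tRNA genes (0.678%, interval 0.186 to 2.44%) and 0.56% of all genes. The intervals of the CP190 and both mock CLAMP shares lie below the shares of all genes, and those of the other 3 lists include them.

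The order against other genes depended on how many ends were searched and on the length of the genes compared. A long gene is searched in windows around ends that lie far apart, a tRNA gene in what is nearly 1 window. When only the end with the lower coordinate was searched, CP190 was at 28.8% of tRNA genes (interval 23.9 to 34.2%) and 26% of all genes, so the lower share of tRNA genes was gone. On the same count the first CLAMP antibody gave 7.46% of tRNA genes and 7.05% of all genes, and the second 6.44% and 5.87%. Set against genes of like size, the CP190 share of tRNA genes was the higher one. Of the 828 other genes up to 300 bases long, 5S ribosomal RNA genes left out, 115 were bound by CP190 (13.9%, interval 11.7 to 16.4%). By class, CP190 was at 30 of 269 small nucleolar RNA genes (11.2%), 34 of 260 microRNA genes (13.1%) and 15 of 32 small nuclear RNA genes (46.9%). Over the 828 short genes together, the CLAMP and Su(Hw) shares lay inside the intervals for tRNA genes. They were 8.09% and 5.8% for the CLAMP antibodies and 3.62% for Su(Hw). The small nuclear RNA genes stood apart, with Su(Hw) at 12 of 32 (37.5%), the first CLAMP antibody at 9 (28.1%) and the second at 0. Su(Hw) was at 1.86% of small nucleolar RNA genes and 2.31% of microRNA genes.

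**Figure D1:**
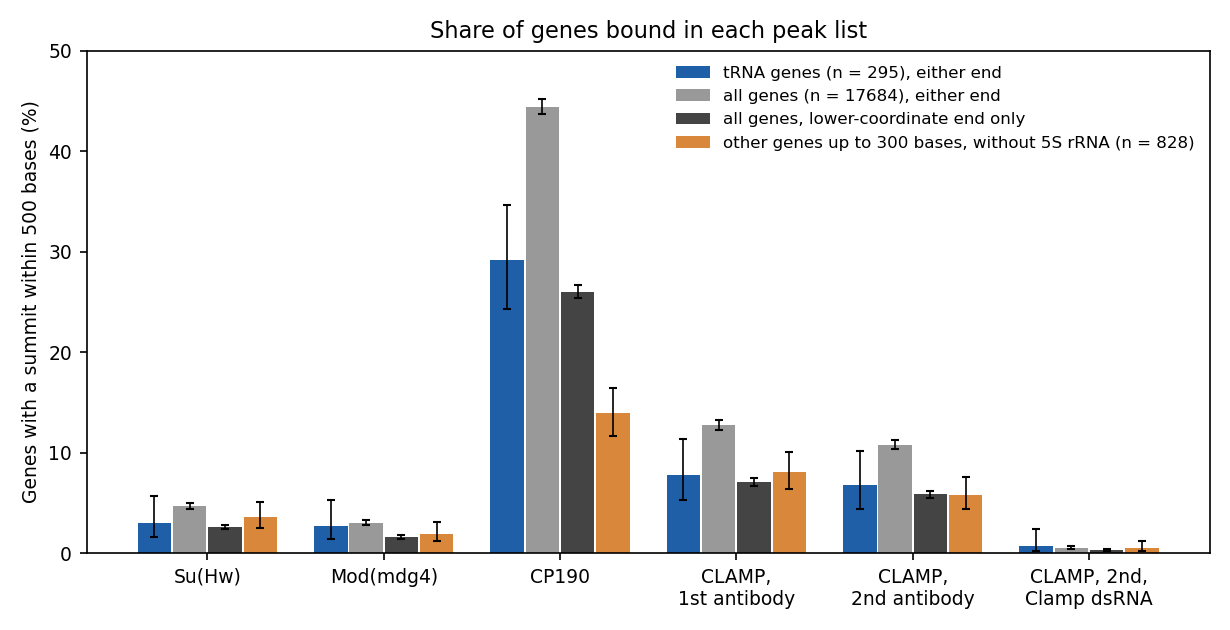
Share of genes with a summit within 500 bases, in percent, for each of the 6 peak lists. Bars are tRNA genes (blue), all genes with both ends searched (light grey), all genes with the lower-coordinate end searched (dark grey) and other genes up to 300 bases without 5S rRNA (orange), and error bars are 95% Wilson intervals of counting error. The CP190 bar of tRNA genes, 29.2%, stands below the 44.4% of all genes and above the 13.9% of other short genes.

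CP190 summits lay beside tRNA genes and seldom in them. A tRNA gene is itself a small part of the bases searched around it. The peaks are wider than their summits, with a median width of 845 bases over all CP190 peaks. Counted by peak, 98 tRNA genes (33.2%) shared at least 1 base with a CP190 peak. That share minus the share of all genes was -17.3 points, on a count where a long gene offers more bases. How reads that fit several tRNA copies bear on summit positions was not tested. Among the 86 bound genes the median distance from the gene to the summit was 175 bases, 24 genes had the summit within 100 bases and 1 of them, tRNA:Asn-GTT-1-6, had it inside the gene. By distance to the nearest summit, 7.8% of tRNA genes had one at 1 to 100 bases and 8.47% at 101 to 200 bases, where other short genes had 2.54% in each bin. Farther out the 2 sets came closer, with 3.73% against 2.29% at 401 to 500 bases and 15.3% against 13.6% at 501 to 1000 bases. Just inside the limit of the rule, 11 tRNA genes had their nearest CP190 summit at 401 to 500 bases, and just outside it, 13 had it at 501 to 600 bases. At the far end, 64 tRNA genes (21.7%) were over 10000 bases from any CP190 summit. Genes of a cluster can share a summit, and the 86 genes shared 60 distinct ones.

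**Figure D2:**
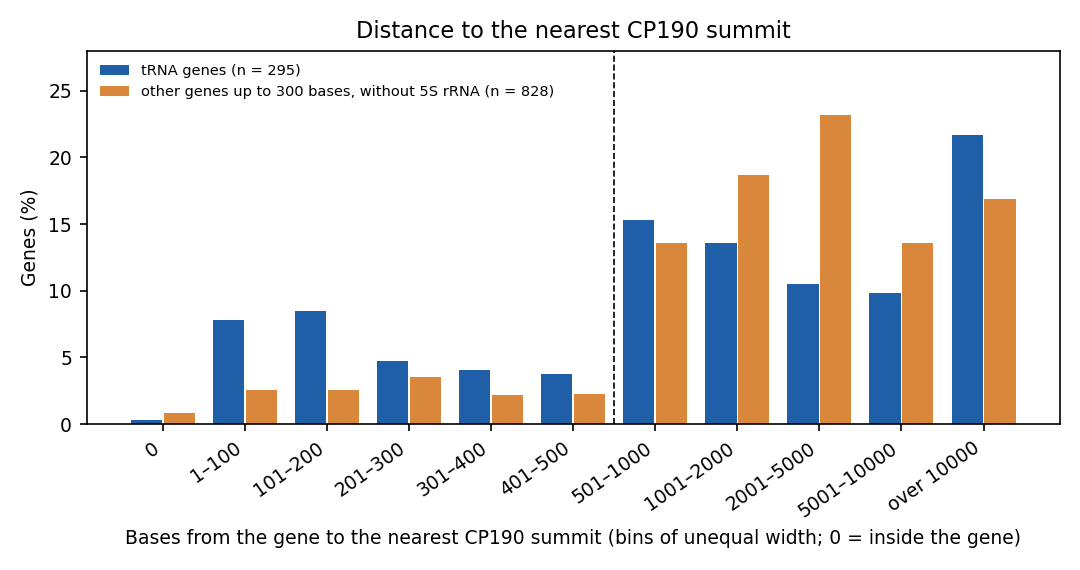
Percent of genes by distance to the nearest CP190 summit, in bases, for the 295 tRNA genes (blue) and the 828 other short genes (orange), in bins of unequal width, with 0 meaning inside the gene and the dashed line marking the 500-base limit. The largest gap between the sets within the limit is at 1 to 200 bases, and other short genes have the larger share inside the gene (0.845% against 0.339%) and at 1001 to 10000 bases.

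tRNA genes with and without a protein-coding gene close by had overlapping CP190 shares and different CP190 peak strengths. With the end of a protein-coding gene within 1000 bases, 33 of 105 tRNA genes were bound (31.4%, interval 23.3 to 40.8%), and with none there, 53 of 190 (27.9%, interval 22 to 34.7%). The other short genes without 5S rRNA were bound in 80 of 372 cases with such an end (21.5%, interval 17.6 to 26%) and in 35 of 456 without (7.68%, interval 5.57 to 10.5%). Over all 4629 genes of any kind that had no other protein-coding end within 1000 bases, 680 were bound (14.7%). Inside protein-coding genes, 39 of 137 tRNA genes were bound (28.5%, interval 21.6 to 36.5%), and outside them 47 of 158 (29.7%, interval 23.2 to 37.3%). The 28 distinct CP190 peaks at tRNA genes with a protein-coding end nearby had a median of 8.77-fold and 2 of them were under 3-fold. The 32 peaks at tRNA genes without one had a median of 2.69-fold and 17 (53.1%) were under 3-fold. The median of all CP190 peaks was 5.59-fold, with 24.5% under 3-fold. The other short genes had the same order, at 7.74-fold with a protein-coding end nearby and 3.87-fold without, so this order was not confined to tRNA genes. The 3-fold line was drawn after the values were seen.

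The 5 strongest CP190 peaks at tRNA genes, a number set by the naming rule, lay on 4 arms. tRNA:Arg-TCG-2-4 (3R, bases 8862933 to 8863005, inside pyd, a gene for a junction scaffold protein) had the highest value, 22.1-fold, with the summit 380 bases away. tRNA:Val-CAC-1-1 (3R, 17617761 to 17617833) had 18.9-fold at 412 bases, 448 bases from the end of CG14324. tRNA:Gln-CTG-2-3 (2L, 2009538 to 2009609) had 17.2-fold at 271 bases, 250 bases from an end of CG4238. tRNA:Ala-CGC-1-2 (2R, 25076765 to 25076836, inside goliath, gol) also had 17.2-fold, at 182 bases. tRNA:Cys-GCA-2-1 (3L, 1925641 to 1925712, inside the homeobox gene Dbx) had 16.7-fold at 374 bases. At the other end of the range, tRNA:Trp-CCA-2-5, inside the GTP cyclohydrolase gene Pu, had 1.62-fold. Between them lay genes near well-known neighbours, which were named after their values were seen. tRNA:Ser-TGA-1-1 and tRNA:Ser-TGA-2-1 shared a 14.8-fold peak, the latter 247 bases from an end of Fib, the gene for the nucleolar methyltransferase fibrillarin. tRNA:Phe-GAA-1-2 had 12.8-fold 233 bases from an end of the ribosomal protein gene RpL17. tRNA:Lys-TTT-2-4 had 2.87-fold and lies 85 bases from an end of the Hox gene Scr.

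Further peaks of 10-fold or more stood at tRNA:Thr-AGT-1-4 (12.8-fold), tRNA:Thr-AGT-1-2 (12.1-fold), tRNA:His-GTG-1-3 (11.3-fold), tRNA:Val-CAC-2-5, inside the nicotinamidase gene Naam (10.6-fold), and the pair tRNA:Ser-GCT-1-1 and tRNA:Ser-GCT-2-5 (10-fold). Peaks between 3- and 10-fold were found at 29 genes, among them tRNA:Phe-GAA-1-4 and tRNA:Phe-GAA-1-5, which shared 6.14-fold next to the ubiquitin ligase gene Smurf, and tRNA:Leu-CAG-1-1, with 8.36-fold 193 bases from an end of the fatty acid activating gene Acsl. In this middle group 17 of 29 genes (58.6%) had a protein-coding end within 1000 bases, and among the 23 genes at 10-fold or more 14 did (60.9%). Of the 34 genes under 3-fold, 2 did (5.88%). In clusters of 2 or more genes lay 25 of these 34, 20 of the middle 29 and 15 of the top 23, beside 190 of all 295 tRNA genes. The summit distances of the 3 groups were close, with medians of 176, 159 and 190 bases from the weakest to the strongest. The weak peaks include tRNA:Val-AAC-2-1 and tRNA:Ser-CGA-1-4, which shared 2.82-fold inside hts, the adducin gene, tRNA:iMet-CAT-1-1 and tRNA:iMet-CAT-1-2 at 2.27-fold, and tRNA:Arg-CCT-1-2 and tRNA:Arg-CCT-1-3 at 2.15-fold.

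CP190 reached a larger share of the bigger clusters, which also search more bases. It was at 26 of 105 lone genes (24.8%, interval 17.5 to 33.8%), 20 of 45 pairs (44.4%, interval 30.9 to 58.8%), 9 of 20 clusters of 3 or 4 genes (45%, interval 25.8 to 65.8%) and 5 of 6 clusters of 5 or more (83.3%, interval 43.6 to 97%). Counted by genes the steps were smaller and not in order, at 24.8%, 33.3%, 23.4% and 41.7%. Over all sizes 60 of 176 clusters were bound (34.1%). Of the 34 bound clusters with 2 or more genes, 11 had every gene within reach of a summit and 23 had only part of their genes. Genes at the edge of a cluster were bound in 43 of 142 cases (30.3%) and genes inside one in 17 of 48 (35.4%).

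Of the 6 largest clusters 5 carried a CP190 peak, under 3-fold in 3 of them. On 2R, the cluster of 5 genes from tRNA:Arg-ACG-1-2 to tRNA:Lys-CTT-1-2, inside the ecdysone receptor gene EcR, had a 1.91-fold peak within reach of 4 genes. The cluster of 7 from tRNA:Ile-AAT-1-3 to tRNA:Leu-CAA-1-1, inside ATP8A, a gene for a phospholipid-moving ATPase, had 3.31-fold at 3 genes. The cluster of 6 cysteine and lysine genes on 3L inside the chitinase gene Cht7 had 1.68-fold at 3 genes. The cluster of 6 from tRNA:Asn-GTT-1-10 to tRNA:Arg-ACG-1-10 on 3R had 1.95-fold at 4 genes. The exception in strength was the cluster of 5 on 2R from tRNA:Glu-TTC-1-5 to the pseudogene tRNA:Glu-CTC-5-1Psi, with a 12.3-fold peak 83 bases from its first gene and no other gene within reach. The cluster of 7 on X from tRNA:Arg-TCG-2-1 to tRNA:Arg-TCG-3-4, with 5 arginine and 2 serine genes, had no peak of any list. The median of the strongest CP190 fold per bound cluster was 6.3 for lone genes, 6 for pairs, 4.67 for 3 or 4 genes and 1.95 for 5 or more. No summit of Su(Hw) or Mod(mdg4) was within reach of any of the 26 clusters with 3 or more genes, beside 8 of all 176 clusters for Su(Hw) (4.55%) and 7 for Mod(mdg4) (3.98%), so the 0 is near the share of all clusters.

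**Figure D3:**
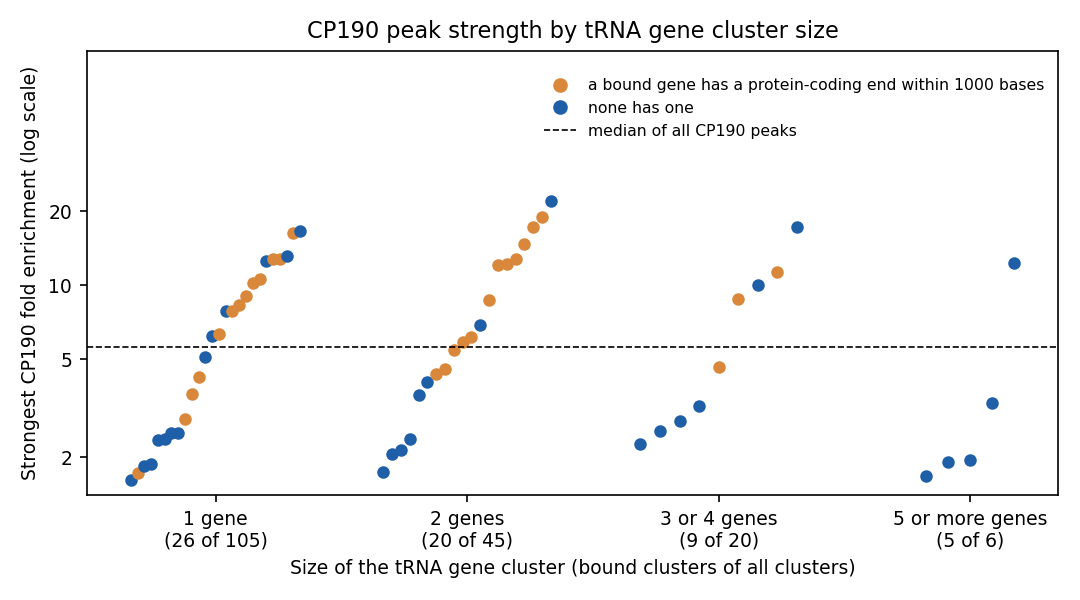
Strongest CP190 fold enrichment (log scale) of each of the 60 bound clusters, by number of genes in the cluster, with the count of bound and of all clusters under each size. Orange marks clusters in which a bound gene has a protein-coding end within 1000 bases, blue the others, and the dashed line is the median of all CP190 peaks, 5.59. Most points under 3-fold are blue, and 3 of the 5 largest bound clusters are under 2-fold.

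Chromosome arm 2R held nearly as many CP190-bound tRNA genes as the rest together. On 2R, 42 of 100 genes were bound (42%, interval 32.8 to 51.8%), against 27.8% on 3R, 20.4% on 3L, 19.5% on 2L and 15.4% on X. For all genes the arms ranged from 39.5% on 2L to 48.7% on X, with 44.9% on 2R, and for the other short genes from 12% on X to 16.1% on 2R. One stretch with many tRNA genes was in and beside EcR, where 19 tRNA genes in 9 clusters lie between bases 6142165 and 6190445 of 2R, among them 8 for asparagine, 5 for arginine, 5 for lysine and 1 for isoleucine. There 11 of the 19 genes were bound, at 1.91- to 10.2-fold with a median summit distance of 84 bases. The 10.2-fold peak stood at tRNA:Arg-ACG-1-3, 520 bases from an end of EcR. Without this stretch, which was picked out after its values were seen, 31 of 81 genes on 2R were bound (38.3%). Su(Hw) and Mod(mdg4) were distributed otherwise, with none of the 100 genes of 2R and none of the 41 of 2L, and 6 and 5 genes on 3R, 2 each on 3L and 1 each on X. For all genes, Su(Hw) was at 4.22% on 2R and 3.96% on 2L.

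Every amino acid family except SeC, with its single gene, had at least 1 CP190-bound member. iMet led with 4 of 6 genes (66.7%, interval 30 to 90.3%), in 2 clusters, one at 12.2-fold inside ome and one at 2.27-fold on 2R. Asn followed with 6 of 10 (60%, interval 31.3 to 83.2%), in 3 clusters, and none of its peaks exceeded 2.07-fold. Of its 10 genes, 8 lie in the stretch in and beside EcR, and without that stretch 1 bound Asn gene was left of 6 and 2 bound Lys genes of 5. Asn also had 3 bound genes within 200 bases and 0 with the strongest 50% of CP190 peaks. Phe had 4 of 8, Cys 3 of 7, Ile 5 of 12, Val 6 of 15, Trp 3 of 8 and Arg 9 of 26. Gly and Ser had 6 of 20 each, Ala and Pro 5 of 17 each, Thr 5 of 18, Lys 5 of 19 and Leu 5 of 22. The lowest shares were Tyr with 2 of 10, His and Met with 1 of 6 each, Asp with 2 of 14, Glu with 2 of 21 (9.52%, interval 2.65 to 28.9%) and Gln with 1 of 12 (8.33%, interval 1.49 to 35.4%). The intervals of iMet and Asn lie above the share of all tRNA genes, 29.2%, and that of Glu just below it, and neighbours in this order overlap widely. Because genes of a family share clusters and peaks, they are not independent counts. Among the 15 Glu genes with the anticodon CTC, in 7 clusters, none was bound by CP190, and both Glu genes that were bound read with TTC. The anticodon CTC of Glu was picked out of 45 anticodons after its counts were seen. Of its genes, the 9 copies of Glu-CTC-3 lie in 3 neighbouring clusters on 3L, between bases 1379934 and 1401852.

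**Figure D4:**
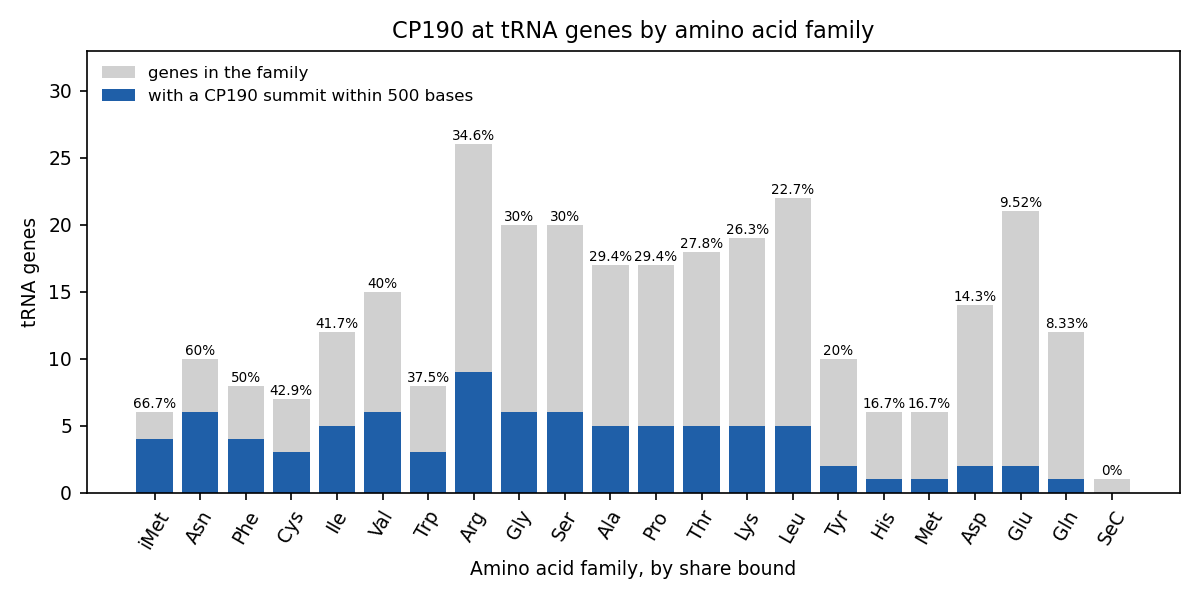
Number of tRNA genes in each of the 22 amino acid families (grey) and number with a CP190 summit within 500 bases (blue), with the percent bound above each bar, in order of that percent. The order runs from 66.7% for iMet to 8.33% for Gln and 0% for SeC.

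The median CP190 fold at the bound genes ranged widely between families, from few sites each and with genes that share a peak counted separately. Among families with 2 or more bound genes it was highest in Ser, 10 from 6 genes in 4 clusters. Trp had 8.75 (3 clusters), Leu 8.36 (5 clusters) and Pro 7.86 (5 clusters). The single bound genes of Gln and His had 17.2 and 11.3. Medians were low for Asn, at 1.93 (3 clusters), Cys, at 1.68 (2), Arg, at 2.15 (6), Ile, at 2.38 (4), and Lys, at 2.38 (5). In Cys and Arg single genes stood far above the family median, tRNA:Cys-GCA-2-1 at 16.7-fold and tRNA:Arg-TCG-2-4 at 22.1-fold.

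Copies of the same tRNA were bound in part in most cases. Genes whose names share everything but the last number have the same mature sequence, and 46 such sets had 2 or more copies, 252 genes in all. In 36 sets CP190 was at part of the copies, in 9 at none and in 1 at all of them, beside a share of 29.2% over single tRNA genes, and no test was made of whether copies differ more or less than other tRNA genes do. Of these sets 8 lie within 1 cluster, 4 of them bound in part, and 38 are spread over 2 or more clusters, 32 of them bound in part. Of the 10 copies of Arg-ACG-1, 5 were bound, at 1.95- to 10.2-fold, and of the 8 copies of Phe-GAA-1, 4 were, at 2.37- to 12.8-fold. Of the 13 copies of Gly-GCC-1, 4 were bound, and of the 9 copies of Glu-CTC-3, none. How the authors' alignment treated reads that fit several copies is not given in the sources used here, and its part in these counts was not tested.

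Su(Hw) and Mod(mdg4) came to tRNA genes together and with CP190. All 9 genes with Su(Hw) had CP190, and all 8 with Mod(mdg4) had both others. Of all genes with a Su(Hw) summit, 86.8% had CP190 and 59.9% had Mod(mdg4), where for tRNA genes these were 9 and 8 of 9. Of all genes with a Mod(mdg4) summit, 93.4% had Su(Hw) and 93.6% had CP190, close to the 8 of 8 seen here. The summits nearly coincided, 9 to 50 bases apart between Su(Hw) and CP190 with a median of 36, and 0 to 86 bases apart between Su(Hw) and Mod(mdg4) with a median of 22.5. No Su(Hw) or Mod(mdg4) summit lay inside a tRNA gene, which is a small part of the bases searched. tRNA:Arg-TCG-2-4 was again the strongest, at 21.3-fold for Su(Hw), 14.9-fold for Mod(mdg4) and 22.1-fold for CP190, with no CLAMP. Next came tRNA:Leu-CAA-2-3 at 18.2-, 8.73- and 13.2-fold, tRNA:Leu-TAG-1-2 at 15.1-, 6.33- and 12.8-fold, and tRNA:Pro-CGG-2-1, inside the LIM-only gene Bx on X, at 14.3-, 7.37- and 12.6-fold. tRNA:Val-CAC-2-3 had 7.01-, 5.31- and 9.09-fold and tRNA:Pro-TGG-1-5, inside the piRNA pathway gene qin, 6.81-, 3.4- and 7.86-fold. tRNA:Val-TAC-1-1 and tRNA:Val-TAC-1-2 shared 1 site at 4.64-, 2.53- and 5.47-fold. The ninth Su(Hw) gene, tRNA:Tyr-GTA-1-4, had 6.11-fold for Su(Hw) and 4.55-fold for CP190 without Mod(mdg4). By family these 9 genes were 3 for Val, 2 each for Pro and Leu, and 1 each for Arg and Tyr. The median fold at tRNA genes, 7.9 for Su(Hw) and 5.82 for Mod(mdg4), stood beside 7.14 and 3.54 over the whole lists.

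CLAMP was at 27 tRNA genes in 21 clusters by either antibody and at 16 genes by both. Of the 23 genes of the first antibody 69.6% were also in the second list, and of the 20 genes of the second 80% were in the first, where all genes had 60.4% and 71.4%. In 15 of the 16 shared genes the summits of the 2 antibodies lay within 100 bases of each other. The strongest site was tRNA:Pro-CGG-2-3 (3L, 18618390 to 18618461), 85 bases from the end of not, which encodes a ubiquitin protease of the SAGA complex, with 11.5- and 12.7-fold and CP190 at 16.3-fold. tRNA:Tyr-GTA-1-8, inside CG8036 on 3R, had 10.7- and 9.93-fold and tRNA:Ala-TGC-2-1 on 2R had 8.4- and 10.4-fold. tRNA:Thr-CGT-1-2 and tRNA:Thr-CGT-1-3 on 3R shared 6.44- and 7.52-fold. tRNA:Arg-TCG-2-2, inside Mnr near the centromere of X, had 6.08- and 11-fold, and the neighbouring pseudogene tRNA:Ile-AAT-2-1Psi was within reach of the 11-fold summit of the second antibody only. The weakest sites seen with both were tRNA:Gln-TTG-2-1 on X, at 2.38- and 2.28-fold, and tRNA:Thr-AGT-1-7, inside the FGF gene bnl, at 2.52- and 3.3-fold.

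CLAMP summits lay farther from tRNA genes than CP190 summits did, with medians of 293 and 311 bases among bound genes against 175. Of the first antibody's 23 genes 1 had the summit within 100 bases, and of the second's 20, 2. Of the 27 CLAMP genes, 16 also had CP190 and 11 did not. For the first antibody this was 60.9% with CP190 against 75.7% over all genes, and for the second 55% against 77.1%. A long gene can have CLAMP at 1 end and CP190 at the other, while a tRNA gene has nearly 1 window. CP190 itself was at 29.2% of tRNA genes and 44.4% of all genes. The overlap was not computed for other short genes. The CLAMP and CP190 summits at one gene were not always one site. They lay within 100 bases of each other at 9 of 14 genes for the first antibody and 8 of 11 for the second, and up to 929 and 870 bases apart at the rest. At some genes, picked after their values were seen, a high fold of 1 protein stood beside a low fold of the other. tRNA:Tyr-GTA-1-8 and tRNA:Arg-TCG-2-2 had CLAMP above 6-fold with CP190 at 2.56- and 1.74-fold, and tRNA:Val-CAC-1-1 had CP190 at 18.9-fold with the first antibody at 2.37-fold. At tRNA:Pro-CGG-2-3 both were high, with CP190 at 16.3-fold and CLAMP at 11.5- and 12.7-fold. Whether the CLAMP and CP190 strengths go together over all bound genes was not tested. Of the families, Tyr had CLAMP most often, at 3 of 10 genes with both antibodies, followed by Phe at 2 of 8. These were 2 clusters for Tyr and 1 for Phe, and over all tRNA genes the shares were 7.8% and 6.78%. The Tyr genes are among the 16 genes longer than 90 bases, with 4 for Leu and 2 for Ile. Of these 16, 5 and 4 had CLAMP by the first and second antibody, beside 6.45% and 5.73% of the shorter genes. That length limit was set after the values were seen. With all 10 Tyr genes among the 16, length and the Tyr family were not told apart, and genes that share a peak were counted separately. CLAMP with Su(Hw) was seen at tRNA:Leu-CAA-2-3, the only tRNA gene in all 5 mock lists, and at tRNA:Tyr-GTA-1-4, in 4 of them. At the former the Su(Hw) summit lay 37 and 45 bases from those of the first and second CLAMP antibody, and at the latter 901 and 842 bases, which makes them separate peaks. At tRNA:Leu-CAA-2-3 (3R, 23601333 to 23601455) CLAMP measured 5.29- and 5.05-fold.

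After Clamp dsRNA, 1 of the 20 tRNA genes of the second antibody's mock list still had a summit (5%), where 42 of 1913 genes of any kind did (2.2%). That gene was tRNA:Pro-CGG-2-3, the strongest CLAMP site among tRNA genes, at 12.7-fold in mock cells and 2.9-fold after dsRNA, with summits 208 and 140 bases from the gene. For the other 19 genes the nearest summit of the dsRNA list was 78253 bases away or more. The second tRNA gene of the dsRNA list, tRNA:Glu-TTC-1-3 (2R, 19564873 to 19564944, inside smooth, sm), had 2.87-fold, with no mock list there and the nearest mock summit of the same antibody 66990 bases away. The 1653 peaks of the dsRNA list against 3861 in mock cells were called from separate libraries, and how depth or precipitation yield bears on the difference was not tested.

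Taking the mock lists together, 198 tRNA genes in 132 clusters had none of the 5, and 97 genes in 67 clusters had at least 1. CP190 alone was the commonest state of the bound genes, at 63 genes in 41 clusters. Su(Hw), Mod(mdg4) and CP190 met at 8 genes in 7 clusters. The 34 genes bound by CP190 at under 3-fold lay in 19 clusters, with 20 of the genes on 2R. None of the 34 had Su(Hw), and 3 had CLAMP. Of all 86 CP190-bound tRNA genes, 9 had Su(Hw) (10.5%) and 16 had CLAMP, and no tRNA gene on 2R had Su(Hw). Of the 29 genes between 3- and 10-fold, 5 had Su(Hw) and 8 had CLAMP. Of the 23 genes at 10-fold or more, 4 had Su(Hw) and 5 had CLAMP. Whether Su(Hw) or CLAMP goes with CP190 peak strength was not tested.

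Other parts of the RNA polymerase III system gave differing counts. None of the 100 5S ribosomal RNA genes, also transcribed by RNA polymerase III, had a summit of any list. They are copies in a repeated array, and the part of multiply aligned reads in this count was not tested. Of 9 other RNA polymerase III genes, CP190 was at 4, namely the signal recognition particle RNA gene 7SLRNA:CR32864 at 2.87-fold, through the peak it shares with tRNA:Lys-TTT-2-4, snRNA:7SKa, whose RNA restrains the elongation factor P-TEFb, at 2.09-fold, and the spliceosomal U6 genes snRNA:U6:96Ab and snRNA:U6:96Ac at 6.77-fold. The protein-coding genes of the system were bound far more often. CP190 was at 17 of 20 genes for RNA polymerase III subunits and its factors (85%), at 19 of 20 genes for cytoplasmic aminoacyl-tRNA synthetases, the enzymes that load tRNAs (95%), and at 13 of 15 for mitochondrial ones (86.7%). Over all protein-coding genes the share was 51.4%. ValRS was the cytoplasmic synthetase gene without CP190. Su(Hw) and Mod(mdg4) were at 2 of the cytoplasmic synthetase genes, AspRS at 6.57- and 3.47-fold and HisRS at 20- and 9.24-fold. CLAMP was at 5 and 2 of the 20 by the first and second antibody. Among all protein-coding genes the shares were 4.88% for Su(Hw), 3.27% for Mod(mdg4), and 13.8% and 11.8% for the CLAMP antibodies. These counts out of 20 are small, and no test was made.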

How the data were processed

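Per the submitters' processing notes, reads were handled with cutadapt 1.8.1, Bowtie2 2.2.9, SAMtools 1.2 and Picard, and peaks were called with MACS2 2.1.0.20150731 on build dm6. For settings, peak thresholds and multiply aligned reads, the choices made were not given in the sources used here. Each deposited list holds 1 row per peak with its interval, a fold ratio over input at the summit set by the authors' caller, and the offset of the summit from the peak's start, also deposited by the authors. The labels tie 2 ChIP libraries to each list, so replicates cannot be compared, and depth is unknown.

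Genes, biotypes and coordinates were taken from a RefSeq table of the same build, with strand, introns and sequence not used here, so ends are lower and higher coordinates, no start site was assigned and a planned motif search was not run. Peaks on the arms were joined to genes with Python 3.11.15, numpy 2.4.6 and pandas 2.3.3, taking the largest fold where several summits were within reach. The join was tested on simulated data. Figures were drawn with matplotlib 3.10.9. Intervals are Wilson intervals at 95%. Clusters join genes up to 1000 bases apart. Named genes are, per list, the 5 bound genes with the largest fold (1 per cluster, the one nearest to the summit), all genes of the dsRNA list, genes in 4 or more mock lists, and clusters of 5 or more genes by their first and last gene. Other named genes were chosen after their values were seen. The tRNA genes and lists were chosen with earlier results of these data known, and no test was run over them. Alternatives were windows of 200 and 1000 bases, peak overlap by 1 base, the strongest 50% of peaks, other backgrounds, other cluster gaps, and leaving out centromere-proximal parts.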

Additional observations from a re-analysis of the deposited data

How the results depend on the processing

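No paired analysis was possible because each peak list pools its 2 ChIP libraries, so the numbers in the labels cannot be carried into any value. The counts of the 5 mock lists scale with the search window, and the dsRNA list stayed at 2 genes within 200 and 1000 bases. Within 200 bases, Su(Hw) was at 5 tRNA genes (5 clusters), Mod(mdg4) at 5, CP190 at 49 (39 clusters), and CLAMP at 8 (8 clusters) by the first antibody and 4 (4 clusters) by the second. Within 1000 bases, Su(Hw) was at 16 genes (13 clusters), CP190 at 131, the first CLAMP antibody at 47 (31 clusters) and the second at 39. With the strongest 50% of peaks, Su(Hw) was at 4 genes (4 clusters), Mod(mdg4) at 5, CP190 at 36 (30 clusters) and the first CLAMP antibody at 15 (12 clusters). Counting any peak that shares 1 base with the gene, Mod(mdg4) was at 5 genes and the dsRNA list at 0, hence 0 clusters. Leaving out genes with a protein-coding end nearer to the summit, a choice made after seeing the data, left 1 gene in the dsRNA list and 71 for CP190.

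The CP190 share of tRNA genes minus that of all genes, -15.3 points, was -8 within 1000 bases. It changed sign to 2.81 with the lower-coordinate end only, 16.8 against other genes up to 300 bases (15.3 without 5S rRNA), 13.2 among genes with no protein-coding end within 1000 bases, and 20.2 with both restrictions. For the first CLAMP antibody, -4.99 became 0.406, 0.577 (-0.295 without 5S rRNA), -0.76 and 3.16 in the same order, and for the second -4.04 became 0.571, 1.61 (0.983), 0.874 and 4.61, or -0.0835 with the strongest 50% of peaks. By peak overlap, where a long gene offers more bases, the differences were -6.18 for Su(Hw), -2.69 for Mod(mdg4), -10.4 and -9.66 for the CLAMP antibodies and -1.11 for the dsRNA list, which was at -0.619 away from protein-coding ends. The backgrounds without 5S rRNA were added after seeing the data. Cluster gaps of 500 and 2000 bases, leaving out centromere-proximal parts, and, added later, leaving out pseudogenes or the tRNA genes in and beside EcR kept the counts of bound genes or clusters in each list within 1.5 times of their main values, as far as each was run. The counts of single families are small and moved by over 1.5 times in 14 of 22 families within 200 bases, 11 within 1000 bases, 15 with the strongest 50% of peaks, and 2 (Asn and iMet) when a cluster counted once. Without the genes in and beside EcR, 2 moved, Asn from 6 to 1 and Lys from 5 to 2. CP190 reached 21 families within 500 or 1000 bases and 16 within 200 bases or with the strongest 50% of peaks.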
